A study of Mus musculus with 45 samples.

Results

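The flavin monooxygenases described here are 4 genes, Fmo1, Fmo2, Fmo4 and Fmo5, taken by name from a table of 24946 usable genes in mouse liver. They were chosen with their levels in these libraries known, so their levels and differences are given as a description, without a p-value. All 4 passed the minimum level for testing (0.5 TPM averaged over all libraries, where TPM is transcripts scaled by length and library total), as did 11244 genes in all. Of the same family, Fmo6 was listed at 0 in 34 of 45 libraries and Fmo9 in all 45.

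RNA was measured in 45 libraries of whole liver lysate from wild-type mice, whose strain and age the labels do not give. The labels name the Lieber-DeCarli liquid diet, with or without ethanol, for 6 weeks (peak injury). Early resolution libraries came 3 days, and late resolution libraries 2 weeks, after ethanol-fed mice were returned to the control diet; what the control-labelled mice ate in that time is not stated. Each of the 3 stages was divided by diet label and by sex label into 12 groups. Of these, 9 groups held 4 libraries, and the early ethanol female, late ethanol female and late ethanol male groups held 3. The labels do not say that replicates are separate animals, so errors measure the spread between these libraries, which may be technical.

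The sex-chromosome transcripts followed the diet label and not the sex label. Xist, the RNA that silences 1 X chromosome in female cells, lay between 13.7 and 51.8 TPM in all 21 ethanol-labelled libraries, and 23 of 24 control-labelled libraries held more of the Y-linked Eif2s3y than of Xist. The exception was late control female 1, with 39.5 TPM of Xist and Eif2s3y at 0. In 22 libraries, 11 labelled female and 11 labelled male, these transcripts went against the sex label. The 12 female-biased liver genes listed were all higher, and the 12 male-biased ones all lower, in ethanol-labelled libraries at each stage. A diet-label difference therefore cannot be told apart from a difference of sex, and groups are called by their labels only. Whether diet and sex labels, or columns of the deposited table, were exchanged was not tested, so the diet label may not give the diet. Hepatocyte markers fitted the tissue label: 7 of 8 were in the table and summed to between 93010 and 216700 TPM. Library totals were 999999 to 1000001 TPM, so sequencing depth is unknown.

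Flavin monooxygenases are enzymes of the endoplasmic reticulum. They hold FAD, take electrons from NADPH and place an oxygen atom on soft nucleophiles, mostly nitrogen and sulfur atoms of drugs, diet-derived amines and thioethers. Fmo1 also converts hypotaurine to taurine, Fmo2 is best known from the lung, Fmo4 is a low-level member with few known substrates, and Fmo5 acts mainly as a Baeyer-Villiger oxidase on ketones. Fmo1 is known to be higher in female than in male mouse liver.

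On mm10 with GENCODE M21, 3 members lie side by side on the minus strand of chromosome 1: Fmo4 at 162793188 to 162813972, Fmo1 at 162829561 to 162866610 and Fmo2 at 162874317 to 162898726. Fmo5 lies apart, on the plus strand of chromosome 3 at 97628804 to 97655282. All are protein-coding, with 9 exons in Fmo1, Fmo2 and Fmo5 and 10 in Fmo4. Their coding sequences share between 61.3% (Fmo1 and Fmo5) and 65.1% (Fmo2 and Fmo4) of aligned bases, so no pair is a near-identical copy. The nearest tested genes on either side of the cluster, Prrc2c and Gorab, and of Fmo5, Chd1l and Prkab2, did not pass the threshold for a diet-label difference at any stage.

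Sequence upstream of Fmo2 and of Fmo5 is shown because these 2 members differed most clearly between the diet labels, in opposite directions. Both come from the RefSeq promoter table for GRCm38.p6, cut where an annotated GENCODE exon begins, and capitals mark a GC box. The table held 2 windows for Fmo2 and 1 each for Fmo4 and Fmo5.
Fmo2 upstream, chr1:162898759-162899008, minus strand: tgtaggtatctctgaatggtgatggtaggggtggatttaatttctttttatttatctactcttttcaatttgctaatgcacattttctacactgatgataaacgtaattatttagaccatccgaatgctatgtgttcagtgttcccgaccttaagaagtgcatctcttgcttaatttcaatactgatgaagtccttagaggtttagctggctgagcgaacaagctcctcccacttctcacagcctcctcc
Fmo5 upstream, chr3:97628769-97628803, plus strand: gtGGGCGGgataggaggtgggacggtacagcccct
The 250 bases of Fmo2 were 39.6% G or C, below the median of 52.4% over 32851 windows of that length. They held no match, on either strand, to any of 6 motifs searched. These were TATAAA, the core promoter element, which 12.4% of all windows held, and the CCAAT box, held by 33.8%. The others were GCGTG, the core of the xenobiotic response element (28.2%), and TGANNNNGC, the core of the antioxidant response element (35.2%). The last were TTCNNNGAA, the STAT5 site (7.02%), and GGGCGG, the GC box (32.7%). The other Fmo2 window, at 162898494 to 162898743 and mostly within annotated exons, held TGANNNNGC once, on the opposite strand. The 35 bases of Fmo5, fewer than the 250 behind the percentages above, held GGGCGG once. The whole Fmo5 window, at 97628769 to 97629018 and mostly within annotated exons, also held TATAAA and CCAAT, each once on the opposite strand.

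Fmo1 and Fmo5 were the abundant members. Averaged over 45 libraries, Fmo1 stood at 295.0 TPM (rank 400 of 11244 genes), Fmo5 at 256.6 TPM (rank 466), Fmo2 at 17.6 TPM (rank 3174) and Fmo4 at 6.47 TPM (rank 5570). TPM is scaled by transcript length, so these levels can be set against each other. No 2 groups next to each other in the order of group means had ranges that stood apart, for any member. The highest Fmo1 mean was in early ethanol males (443 TPM) and the lowest in peak control males (179.5 TPM). For Fmo2 the 6 ethanol-labelled groups took the 6 highest places, from 34.4 TPM in late ethanol males to 19.7 TPM in peak ethanol males. The highest Fmo4 mean was in late ethanol females (10.02 TPM) and the lowest in peak ethanol males (3.68 TPM). Fmo5 was highest in late control males (357 TPM) and lowest in late ethanol females (149 TPM).

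**Figure D1:**
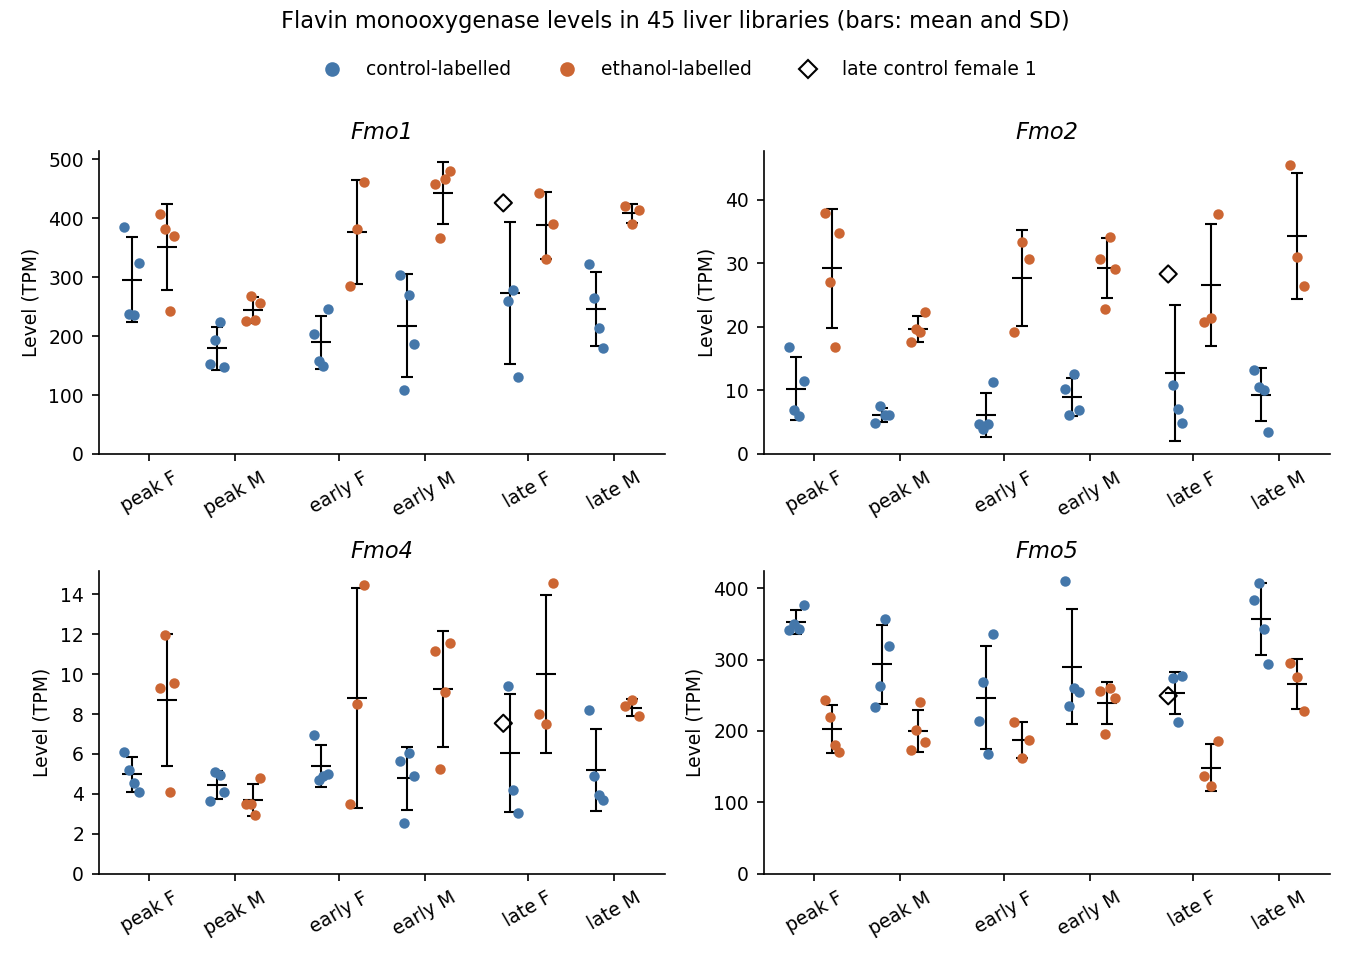
Levels (TPM, linear axes from 0) of Fmo1, Fmo2, Fmo4 and Fmo5 in 45 liver libraries, 1 point per library, by stage and sex label (F, female; M, male), with control-labelled libraries left and ethanol-labelled right in each pair; bars give the mean and SD. The Fmo2 points of the ethanol-labelled libraries lie at 16.9 TPM or above, and among control-labelled libraries only late control female 1 (open diamond, 28.3 TPM) lies above 16.8.

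Fmo2 was the member with the largest and steadiest diet-label difference. In peak libraries labelled female it stood at 16.8, 6.86, 5.93 and 11.5 TPM with the control label and at 38.0, 27.1, 16.9 and 34.9 TPM with the ethanol label. In those labelled male it stood at 4.83, 7.51, 6.17 and 6.13 TPM against 17.6, 19.6, 19.1 and 22.4 TPM. All 8 ethanol-labelled libraries were above all 8 control-labelled ones, with a margin of 16.9 against 16.8 TPM at its narrowest. The means were 8.21 ± 4.00 and 24.4 ± 8.09 TPM (SD, n = 8 each), a ratio of 2.98. On the log2(TPM + 0.5) scale of the model, which understates differences of low genes, the difference was 1.56 ± 0.27 (SE).

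At early resolution Fmo2 again separated the diet labels. The female-labelled libraries stood at 4.66, 4.00, 4.76 and 11.4 TPM with the control label and at 19.2, 33.3 and 30.7 TPM with the ethanol label. The male-labelled ones stood at 10.3, 6.07, 12.7 and 6.96 TPM against 30.7, 22.9, 34.2 and 29.1 TPM. No library of either diet label entered the range of the other. The means were 7.59 ± 3.36 (SD, n = 8) and 28.6 ± 5.54 TPM (SD, n = 7), a log2 difference of 1.92 ± 0.28 (SE).

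After 2 weeks of resolution Fmo2 had the same direction. Control-labelled females stood at 28.3, 10.8, 7.09 and 4.81 TPM and ethanol-labelled females at 20.7, 21.4 and 37.7 TPM. Control-labelled males stood at 13.2, 10.5, 10.1 and 3.44 TPM and ethanol-labelled males at 45.5, 31.1 and 26.5 TPM. The ranges overlapped through 1 library, late control female 1, at 28.3 TPM. The log2 difference was 1.61 ± 0.29 (SE; means 11.03 ± 7.72, n = 8, and 30.5 ± 9.72 TPM, n = 6, SD) and 1.85 without that library. Leaving it out, all 21 ethanol-labelled libraries of the 3 stages were above all 23 remaining control-labelled ones, a separation with ethanol higher that 0.338% of tested genes showed. With it, 0.00889% of genes did, and Fmo2 was not among them. Within single stages that separation held for 2.16% of genes at peak, 1.85% at early resolution, 0.391% at late resolution and 3.9% at late resolution without late control female 1.

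Markers of other liver cell types also differed beside Fmo2, and more cells of a type and more RNA per cell cannot be told apart in whole tissue. Of 8 stellate cell and fibroblast markers, 6 passed the threshold upwards at peak, 2 at early and 0 at late resolution, with medians of 0.84, 0.60 and 0.37 on the log2 scale. Of all genes, 17.3%, 14.3% and 8.82% passed upwards at these stages. The summed level of the 8 markers ranged from 33.1 to 105 TPM in peak control-labelled and from 71.9 to 251 TPM in peak ethanol-labelled libraries. Over all libraries Des, 1 of the 8, had a median of 1.05 and a highest level of 109 TPM, so 1 marker can set the upper end of such a sum. At late resolution the ranges were 48.8 to 119 and 86.4 to 139 TPM. None of the 8 was at 0 throughout. For endothelial markers, 8 of 8 passed upwards at peak, 2 at early and 0 at late resolution, with peak sums of 51.9 to 189 TPM with the control label and 78.5 to 254 TPM with the ethanol label. Macrophage markers passed upwards in 0, 6 and 4 of 8 at the 3 stages, with medians of 0.43, 0.79 and 0.71, and summed to 127 to 417 TPM in early control-labelled and 351 to 562 TPM in early ethanol-labelled libraries. At late resolution those sums ran from 159 to 642 and from 371 to 603 TPM. Lymphocyte and neutrophil markers passed upwards in 0, 2 and 3 of 6. Of 3 tested cholangiocyte markers, 2 passed upwards at peak and 0 at early and late resolution. Of 3 tested adipocyte markers, 1 passed upwards and 1 downwards at peak, 1 downwards at early resolution and 0 at late resolution. The part of these cell types in the Fmo2 difference was not tested.

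Fmo1 was higher in ethanol-labelled libraries, most at early resolution. Early control-labelled females stood at 204, 157, 149.6 and 247 TPM and ethanol-labelled females at 286, 382 and 462 TPM. Early control-labelled males stood at 304, 109, 269.5 and 186 TPM and ethanol-labelled males at 458, 366, 467 and 480.3 TPM. The diet labels did not overlap within either sex label, and across both, 6 of 7 ethanol-labelled libraries were above every control. Such a separation upwards was shown by 7.38% of all genes in early female-labelled and 15.6% in early male-labelled libraries. The means were 203 ± 66.2 (SD, n = 8) and 414 ± 72.1 TPM (SD, n = 7), a ratio of 2.04 and a log2 difference of 1.06 ± 0.20 (SE).

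The Fmo1 difference at peak was smaller. Peak control-labelled females, at 386, 237, 237 and 324 TPM, overlapped with ethanol-labelled females, at 407, 382, 244 and 369 TPM. Peak control-labelled males were at 152, 194, 224 and 148 TPM and ethanol-labelled males at 225, 268, 227 and 257 TPM, just clear of each other, as 11.7% of all genes were in that direction. The log2 difference was 0.36 ± 0.19 (SE), with means of 238 ± 82.0 and 297 ± 75.6 TPM (SD, n = 8 each). This difference did not pass the threshold, which does not show that the levels were alike.

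At late resolution Fmo1 stood at 426, 259, 278 and 131 TPM in control-labelled females and at 444, 330.3 and 390.4 TPM in ethanol-labelled females. In males it stood at 323, 266, 214 and 179.8 TPM with the control label and at 421, 391 and 415 TPM with the ethanol label. As for Fmo2, the overlap came from late control female 1: without it, the lowest ethanol-labelled library (330.3 TPM) was above the highest control (323 TPM). Such a separation upwards was shown by 3.9% of all genes without late control female 1 and by 0.391% with it. The log2 difference was 0.69 ± 0.20 (SE; means 260 ± 90.4, n = 8, and 398 ± 39.0 TPM, n = 6, SD) and 0.82 without that library. It fell short of the threshold when late control female 4, late ethanol female 1 or late control male 4 was left out, with 0.53, 0.64 and 0.62, and also with the stage fitted alone, at 0.69.

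Late control female 1, the control-labelled library with Xist, thus stood with the ethanol-labelled libraries for Fmo1 and Fmo2. Its Fmo2 level of 28.3 TPM compares with 4.81 to 10.8 TPM in the other 3 late control females. For Fmo1 the values were 426 TPM and 131 to 278 TPM. Its Fmo4 (7.54 TPM, against 3.03 to 9.43) and Fmo5 (249 TPM, against 212 to 277) lay within the range of the same 3 libraries and also within that of the late ethanol-labelled ones (7.49 to 14.6 and 122 to 296 TPM). Its summed female-biased genes reached 5711 TPM, where the median of late control-labelled libraries was 45.6 TPM. The label, the transcripts and these levels come from 1 library, with no replicate.

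Fmo4 varied within groups nearly as much as between them. In peak females it stood at 6.07, 5.20, 4.52 and 4.08 TPM with the control label and at 9.29, 11.96, 4.07 and 9.55 TPM with the ethanol label. In peak males it stood at 3.64, 5.09, 4.94 and 4.10 TPM against 3.48, 3.49, 2.94 and 4.80 TPM. The female-labelled libraries thus leaned up with the ethanol label (log2 difference 0.67 ± 0.33, SE) and the male-labelled ones slightly down (-0.25 ± 0.33). The difference between the sex labels, -0.92 ± 0.47, did not pass the threshold. Over both sex labels the peak difference was 0.21 ± 0.23. It was 0.12 without peak ethanol female 2, 0.37 without peak ethanol female 3 and 0.13 after median-of-ratios scaling, and passed the threshold in none of these.

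At early resolution Fmo4 ranged from 2.52 to 6.94 TPM with the control label (median 4.95) and from 3.47 to 14.4 TPM with the ethanol label (median 9.12). At late resolution the ranges were 3.03 to 9.43 TPM (median 4.54) and 7.49 to 14.6 TPM (median 8.20). In both stages the ethanol-labelled median lay above most controls but the ranges overlapped. The log2 differences were 0.68 ± 0.24 and 0.72 ± 0.25 (SE). The early value sat at the edge of the threshold, passing it as fitted but lying on the other side under 36 of 56 other settings, and its size ran from 0.46 without early ethanol female 3 to 0.94 without early ethanol female 1.

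Fmo5 went the other way, lower in ethanol-labelled libraries. Peak control-labelled females stood at 342, 350.3, 343 and 377 TPM and ethanol-labelled females at 243, 219, 179.6 and 170.2 TPM. Peak control-labelled males stood at 233, 263, 358 and 319 TPM and ethanol-labelled males at 173, 201, 240.0 and 185 TPM. The female-labelled groups were apart by nearly 100 TPM, a separation downwards that 2.61% of all genes showed, and the male-labelled ones overlapped. The means were 323 ± 49.7 and 201 ± 29.4 TPM (SD, n = 8 each), a ratio of 0.623 and a log2 difference of -0.68 ± 0.13 (SE).

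The Fmo5 difference was narrower at early resolution. Control-labelled libraries were at 214, 269, 168 and 336 TPM in females and at 409.8, 235, 260.0 and 254 TPM in males. Ethanol-labelled libraries were at 213, 162 and 188 TPM in females and at 255, 196, 260.3 and 246 TPM in males. The ranges overlapped broadly, and the log2 difference was -0.30 ± 0.13 (SE; means 268 ± 74.6, n = 8, and 217 ± 37.7 TPM, n = 7, SD). It did not pass the threshold as deposited, but it was -0.48 after median-of-ratios scaling, -0.54 after quantile normalization and -0.39 without early control female 3, and passed in each of these.

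At late resolution Fmo5 was again lower with the ethanol label in both sex labels. Females stood at 249, 274, 212 and 277 TPM with the control label and at 138, 122 and 186 TPM with the ethanol label, without overlap, as did 2.09% of all genes in that direction. Males stood at 384, 408, 343 and 294 TPM against 296, 275 and 228 TPM, with 1 ethanol-labelled library above the lowest control. The log2 difference was -0.60 ± 0.14 (SE; means 305 ± 67.4, n = 8, and 207 ± 71.2 TPM, n = 6, SD), and it was -0.60 also without late control female 1.

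Counted against the threshold (limma, Benjamini-Hochberg adjusted p under 0.05 over all 11244 genes), 2 of 4 members passed at peak, Fmo2 upwards and Fmo5 downwards, where 27.1% of all genes passed (17.3% upwards, 9.81% downwards). At early resolution Fmo1, Fmo2 and Fmo4 passed upwards, where 16.7% of all genes passed (14.3% upwards, 2.46% downwards). At late resolution Fmo1 and Fmo2 passed upwards and Fmo5 downwards, where 12.8% of all genes passed (8.82% upwards, 3.98% downwards). Since the members were chosen on these values, nothing is read from those counts. The split of all genes depended on scaling: 63.8%, 85.3% and 68.9% of the genes that passed were higher with the ethanol label as deposited, and 42.1%, 45.5% and 40.6% after median-of-ratios scaling. That scaling moved the median of all genes at early resolution from 0.13 to -0.03, and the 12 differences of the members kept their direction. The members' median log2 difference was 0.28, 0.87 and 0.70 at the 3 stages, beside medians of 0.05, 0.13 and 0.05 over all genes.

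**Figure D2:**
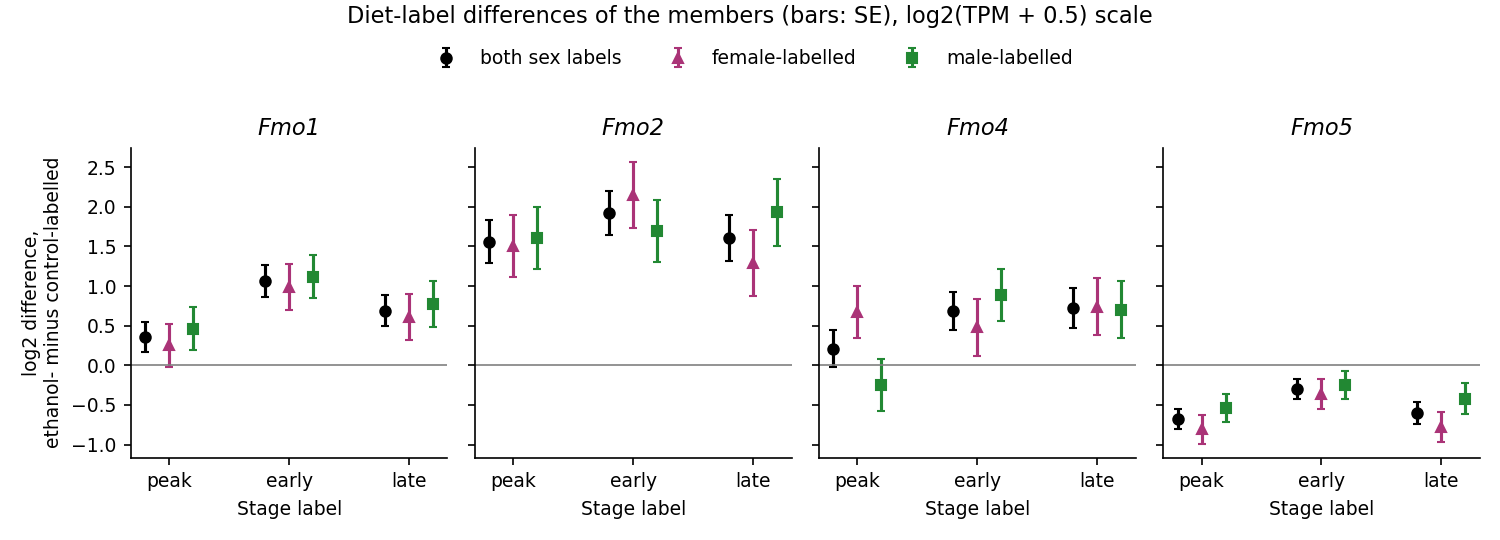
Ethanol-labelled minus control-labelled difference of each member by stage, on the log2(TPM + 0.5) scale, for both sex labels together (circles), female-labelled (triangles) and male-labelled libraries (squares); bars give the SE. Fmo2 lies between 1.29 and 2.15 in all 9 estimates and Fmo5 lies below 0 in all 9, while Fmo4 at peak is 0.67 in female-labelled and -0.25 in male-labelled libraries.

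The diet-label differences were not shown to depend on sex label or stage. For no member did the male-labelled minus female-labelled value of the diet-label difference pass the threshold, at a background of 0.16%, 0.00889% and 0.0445% of all genes at the 3 stages. The Fmo1 diet-label difference was 0.70 ± 0.27 (SE) larger at early resolution than at peak, and that of Fmo5 differed by 0.37 ± 0.18. Neither passed the threshold. In limma 0.0% of all genes passed for early against peak and for late against early (1879 and 354 genes at an unadjusted p under 0.05), and 3.98% for late against peak. These comparisons between stages each use different control libraries.

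Within ethanol-labelled libraries the members differed from their peak level by at most 0.66 on the log2 scale. Fmo1 was 0.48 ± 0.20 (log2, SE) higher at early resolution and 0.45 ± 0.20 higher at late resolution than at peak, and Fmo4 was 0.55 ± 0.24 and 0.66 ± 0.25 higher. No member passed the threshold in either comparison, where 26.5% and 22.0% of all genes did. Fmo2 (0.25 ± 0.28 and 0.32 ± 0.29) and Fmo5 (0.08 ± 0.13 and -0.02 ± 0.14) lay near 0. In control-labelled libraries no member passed between stages either, with backgrounds of 0.729% and 0.676%.

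By sex label, Fmo1 and Fmo4 were lower in male-labelled than in female-labelled libraries at peak, by log2 differences of -0.60 ± 0.19 and -0.61 ± 0.23 (SE). At that stage 51.0% of all genes passed the threshold and the median over all genes was -0.29. After scaling libraries by the median of ratios, an alternative added after the data were seen, the values were -0.25 and -0.29, and that of Fmo5 moved from -0.15 to 0.20. At late resolution Fmo5 was 0.67 ± 0.14 higher in male-labelled libraries, with means of 318 and 208 TPM, where 3.25% of all genes passed. That value was 0.62 after the same scaling. No member passed at early resolution (0.596% of all genes).

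The opposite directions of the 2 abundant members showed in their ratio. With the control label Fmo1 was below Fmo5 in most libraries: their ratio averaged 0.730 ± 0.196 at peak, 0.767 ± 0.189 at early resolution and 0.896 ± 0.419 at late resolution (SD, n = 8 each). With the ethanol label it averaged 1.49 ± 0.368 (n = 8), 1.94 ± 0.378 (n = 7) and 2.12 ± 0.724 (n = 6). Fmo1 exceeded Fmo5 in 7 of 8, 7 of 7 and 6 of 6 ethanol-labelled libraries and in 1, 1 and 2 of 8 control-labelled ones. A ratio within a library does not depend on how libraries were scaled. Since both genes were chosen with these values known, it is a description.

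**Figure D3:**
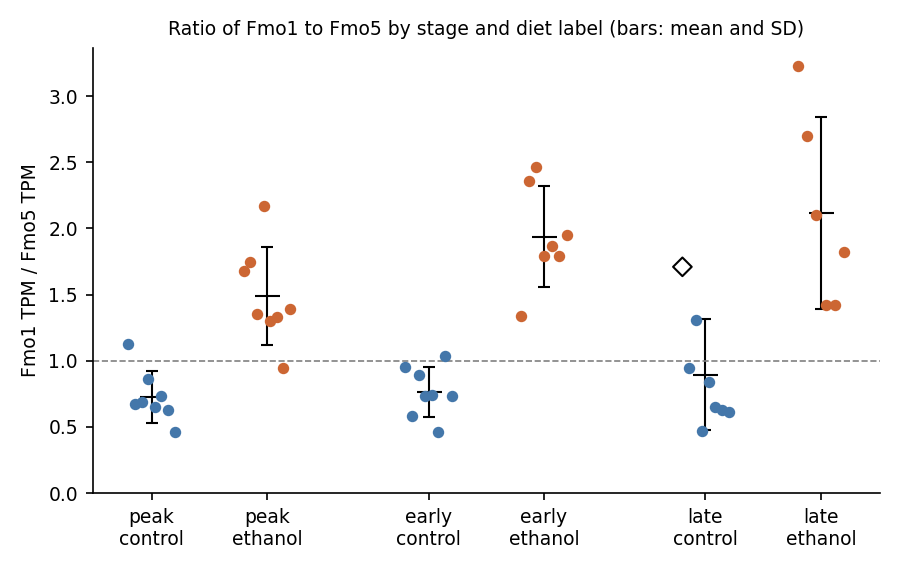
Ratio of Fmo1 TPM to Fmo5 TPM in each of 45 libraries (linear axis from 0), by stage and diet label; bars give the mean and SD and the dashed line marks a ratio of 1. Ethanol-labelled libraries average 1.49 to 2.12 and control-labelled ones 0.730 to 0.896, with late control female 1 (open diamond) at 1.71.

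The summed level of the 4 members moved less than its composition. At peak it was 664 ± 81.6 TPM in control-labelled and 591 ± 109 TPM in ethanol-labelled females (SD, n = 4 each). In early males it was 521 ± 161 and 721 ± 87.2 TPM (SD, n = 4 each), the widest gap in TPM between diet labels of 1 sex label and stage. Fmo5 supplied the larger share in 5 of the 6 control-labelled groups, up to 60.6% in peak control males. In late control females, which include late control female 1, Fmo1 and Fmo5 each supplied 48.4%. Fmo1 supplied the largest share in the 6 ethanol-labelled groups, from 52.3% to 67.8%. Fmo2 supplied 1.29% to 2.13% with the control label and 4.04% to 4.86% with the ethanol label.

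The 3 chromosome 1 members also varied together from library to library. Spearman's rho over 45 libraries, which share groups and scaling, was 0.87 for Fmo1 and Fmo2, 0.77 for Fmo1 and Fmo4 and 0.66 for Fmo2 and Fmo4. After subtracting the 12 group means it was 0.72, 0.65 and 0.65. After median-of-ratios scaling as well, it was 0.58, 0.43 and 0.43. Fmo5 had a rho of -0.17 with Fmo1, -0.36 with Fmo2 and -0.11 with Fmo4 over libraries, and of 0.33, 0.39 and 0.27 after subtracting group means. With median-of-ratios scaling as well, the last 3 values were 0.10, 0.15 and -0.25, so the positive sign of Fmo4 and Fmo5 did not hold. For comparison, the median rho of each member with 6014 other genes after subtracting group means was 0.35 for Fmo1, 0.33 for Fmo2, 0.42 for Fmo4 and 0.20 for Fmo5. By that measure 6.82% of these genes were at least as like Fmo1 as Fmo2 was, and 13.5% at least as like Fmo1 as Fmo4 was. For Fmo2, 2.0% were at least as like it as Fmo4 was. These comparison values are without median-of-ratios scaling.

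**Figure D4:**
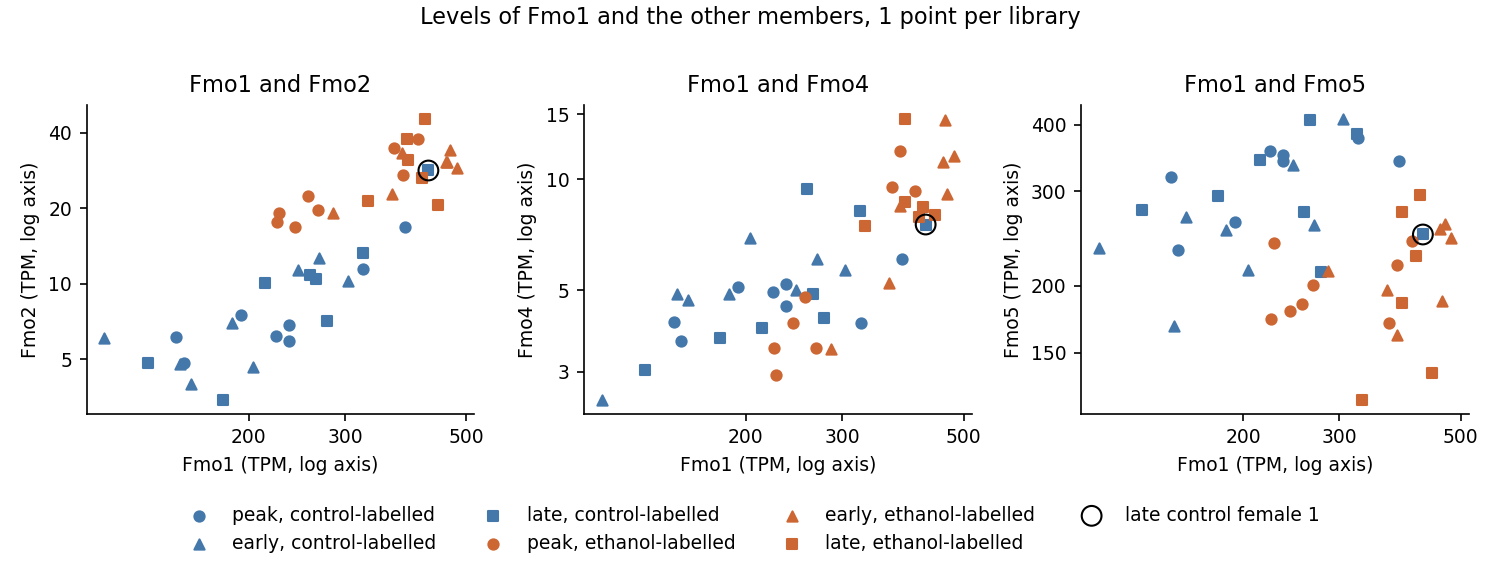
Levels of Fmo2, Fmo4 and Fmo5 (vertical) against Fmo1 (horizontal), both in TPM on log axes, 1 point per library; colour gives the diet label, shape the stage, and the circle marks late control female 1. Fmo2 and Fmo4 climb with Fmo1 (rho 0.87 and 0.77), while Fmo5 (rho -0.17) does not, and the 2 diet labels overlap in part.

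The genes most like each member over 45 libraries, among genes that averaged 5 TPM or more, were ranked by Spearman's rho. Nearest to Fmo1 were Hadh (rho 0.95), a mitochondrial enzyme of fatty acid oxidation, Echdc3 (0.93), Gypc (0.93), Dpys (0.92), the dihydropyrimidinase, and Maob (0.91), a mitochondrial amine oxidase. Nearest to Fmo2 were Abcd2 (0.93), a peroxisomal fatty acid transporter, the P450 Cyp2c39 (0.93), Vnn3 (0.92), the organic anion transporter Slco1a4 (0.92) and Slc22a27 (0.90). Nearest to Fmo4 were Tmem94 (0.91) and, each at 0.89, Npepl1, Glb1, Sun1 and Ptdss2. Nearest to Fmo5 were Chpt1 (0.78), Ncoa4 (0.78), Nap1l1 (0.77), Ugt1a6a (0.76) and Ddhd2 (0.75), at lower values than for the other members.

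Of 28 listed genes for cofactor supply and neighbouring reactions, 23 were tested, and some rose while others fell. At peak 3 rose (Rfk, G6pdx, Nnt) and 4 fell (Slc52a2, Csad, Aox1, Aox3), with a median log2 difference of 0.03 against 0.05 over all genes, 27.1% of which passed. At early resolution 8 rose and 2 fell (median 0.20 against 0.13), where 16.7% of all genes passed. At late resolution 4 rose and 2 fell (0.05 against 0.05), where 12.8% of all genes passed. The late count was 2 without late ethanol female 1 and 9 without late control female 1.

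Among genes for FAD, Rfk, the riboflavin kinase, rose from 7.81 ± 0.832 to 11.3 ± 1.94 TPM at peak (SD, n = 8 each), by 0.49 ± 0.11 on the log2 scale (limma adjusted p = 0.00092). At early resolution it rose by 0.57 ± 0.11 (limma adjusted p = 0.00048). Por, which passes NADPH electrons to the microsomal P450s, rose from 284 ± 72.6 to 446 ± 47.5 TPM at early resolution, by 0.68 ± 0.14 (limma adjusted p = 0.00074). It also rose at late resolution, by 0.42 ± 0.15 (limma adjusted p = 0.048). Cyb5a, the microsomal cytochrome b5, rose by 0.57 ± 0.14 at early and 0.55 ± 0.15 at late resolution (limma adjusted p = 0.0047 and 0.011). Neither passed the threshold at peak.

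In taurine synthesis, Csad, the decarboxylase that makes hypotaurine, the substrate of Fmo1, fell at peak and early resolution. At peak it stood at 80.9 ± 42.4 TPM with the control label and 21.99 ± 11.4 TPM with the ethanol label (SD, n = 8 each), and it fell by 1.81 ± 0.26 on the log2 scale (limma adjusted p = 1.7e-06). At early resolution it fell by 1.03 ± 0.27 (limma adjusted p = 0.0072), a stage at which Fmo1 was higher by 1.06. At late resolution its difference of -0.65 ± 0.28 did not pass (limma adjusted p = 0.12). Cdo1, the cysteine dioxygenase one step earlier, rose by 0.54 ± 0.14 at early resolution (limma adjusted p = 0.0073). Vnn1, a pantetheinase that releases cysteamine, rose by 1.06 ± 0.22 at early resolution (limma adjusted p = 0.00093) and by 0.80 ± 0.23 at late resolution (limma adjusted p = 0.018).

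Among other oxidases, Aox3, an aldehyde oxidase, fell at every stage. Its mean went from 187 ± 53.2 to 59.9 ± 10.4 TPM at peak (SD, n = 8 each), and it fell by 1.60 ± 0.23, 1.43 ± 0.24 and 1.49 ± 0.25 on the log2 scale at the 3 stages (limma adjusted p = 1.5e-06, 3.5e-05 and 4.8e-05). Aox1 fell by 0.87 ± 0.18 at peak (limma adjusted p = 0.00051) and by 0.62 ± 0.20 at late resolution (limma adjusted p = 0.033). Maob, of the same list, went the other way. It rose by 0.66 ± 0.16 at early and 0.47 ± 0.16 at late resolution (limma adjusted p = 0.0027 and 0.047). At peak its difference of 0.36 ± 0.15 did not pass (limma adjusted p = 0.072).

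Of 20 tested transcription factors and receptors listed for liver and sex-biased expression, 5 rose and 2 fell at peak, 5 rose at early resolution, and 1 rose and 1 fell at late resolution. Over all genes 27.1%, 16.7% and 12.8% passed at these stages. The medians of the list were 0.06, 0.23 and 0.16 on the log2 scale, beside 0.05, 0.13 and 0.05 over all genes. Cux2, a repressor known to be female-specific in mouse liver, rose by 2.68 ± 0.28, 3.30 ± 0.29 and 3.09 ± 0.30 on the log2 scale (limma adjusted p = 3e-09, 7.4e-11 and 1.3e-09). Its mean was 0.0613 ± 0.0668 TPM with the control label and 3.96 ± 3.30 TPM with the ethanol label at peak (SD, n = 8 each). Esr1, the estrogen receptor alpha, rose by 1.34 ± 0.16 at peak and 1.00 ± 0.17 at early resolution (limma adjusted p = 5.1e-08 and 4e-05). Arnt, the partner of the aryl hydrocarbon receptor, rose by 0.60 ± 0.12 at peak (limma adjusted p = 0.00023). Nr1i2, the pregnane X receptor, rose by 0.54 ± 0.14 at early resolution (limma adjusted p = 0.0059). Bcl6, a repressor known to be higher in male liver, fell by 1.64 ± 0.42 at late resolution (limma adjusted p = 0.0071). The part of these genes in the levels of the members was not tested.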

How the data were processed

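A kit for stranded mRNA sequencing was used, per the labels' protocols, and the build was mm10, per the submitters' processing notes. No aligner or counter is named there. The deposited table holds TPM made by the authors (the columns sum to between 999999 and 1000001), not counts, so no count model was run. Of 24972 entries, 26 with date-like names were left out. Limma 3.58.1 (R 4.3.3) with a variance trend was fitted to log2(TPM + 0.5) with 12 group means over 45 libraries (33 residual degrees of freedom) for the 11244 genes averaging 0.5 TPM or more, with Benjamini-Hochberg adjustment over all of them. On simulated data, 90 to 93 of 100 genes changed by 1 log2 unit and 99 of 100 changed by 2 were recovered. False calls numbered 6 to 16 among the unchanged genes. The simulated noise was drawn independently for each gene, without spread shared between genes, so these rates may not hold for the real libraries. Members and lists were chosen with earlier results of these data known. Named genes are the members, the 4 pathway and 3 regulator genes with the smallest p among those passing at each stage, and the 5 genes most like each member, by Spearman's rho. The pathway genes Cdo1, G6pdx, Nnt and Slc52a2, which passed, and the marker Des were named outside that rule. The rule would also take 1 entry that is not reported here and was left out of the likeness ranking. Of the 28 pathway genes, 26 had a row. No pair of libraries was identical. Replicate numbers were not used to pair libraries in the main fit, from which the SE of the member differences come. Only in the peak female groups did each of the 4 same-numbered pairs correlate above 0.1 in its deviations (0.109 to 0.222). A replicate block, fitted as an alternative over all stages, changed no member's call at peak. Alternatives were other pseudocounts, filters, scalings, array weights, stages fitted alone, a replicate block and leaving out each library.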

Additional observations from a re-analysis of the deposited data

Results flagged for a closer look

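Of 36 combinations of a member and a group of 4 libraries, 3 held a library far from the other 3, where chance gives about 1 in 20. Fmo2 stood at 11.4 TPM in early control female 4, above 4.00 to 4.76 TPM in the rest of its group, and still below every ethanol-labelled library. Fmo4 stood at 6.94 TPM in early control female 1, against 4.71 to 5.01 TPM. Fmo5 stood at 409.8 TPM in early control male 1, against 235 to 260.0 TPM, the highest Fmo5 level of the 45 libraries. The 3 flags fall on 3 different libraries, all control-labelled and at early resolution.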

How the results depend on the processing

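The 12 diet-label differences of the members kept their direction and stayed within 1 residual SD of the reported value in all 180 values without 1 library of their stage and all 132 from other settings. Fmo2 at each stage and Fmo5 at peak and late resolution stayed past the threshold in all 56 settings. These settings reuse the libraries on which the members were chosen, so they describe the fit and add no separate evidence for the differences. Fmo4 changed side in 36 settings at early and 11 at late resolution, Fmo1 in 5 at late resolution and 1 at peak (array weights), and Fmo5 in 3 at early resolution; the cause was not tested. Counts over all genes (3049 at peak, 1880 at early and 1440 at late resolution) were 1617, 1075 and 914 with a mean of at least 5 TPM, where fewer genes were tested, and 4589, 4775 and 3712 with array weights, a fit that gave a convergence warning. After quantile normalization 45.9%, 50.5% and 48.6% of the genes that passed at the 3 stages were higher with the ethanol label. The late count was 2374 with median-of-ratios scaling, 2423 with quantile normalization and 762 with the stage fitted alone. Leaving out 1 library gave 2572 to 3344 genes at peak, 1123 (without early ethanol female 2) to 3016 (without early ethanol female 1) at early and 966 (without late control female 4) to 2098 (without late control female 1) at late resolution. The pathway count was 11 with array weights at peak and at late resolution, 2 at late resolution with the stage alone, and 7 to 10, 9 to 10 and 2 to 9 without 1 library. The regulator count was 4, 2 and 1 with a mean of at least 5 TPM, 11, 12 and 7 with array weights, 3 at early resolution with no filter, 4 at late resolution with quantile normalization, and 6 to 8, 3 to 7 and 2 to 6 without 1 library. Depth is unknown, so the counting error of Fmo4 and other low genes cannot be given.

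Same-numbered control and ethanol libraries deviated together in the peak female groups (4 pairs, r from 0.109 to 0.222, each best with its own number) and in 3 of 4 early male pairs (0.151 to 0.25), and not in the other 4 sets. Over all 21 pairs r ran from -0.371 to 0.25, with a median of -0.053 and 7 best with their own number. With the replicate number as a block, which left 42 libraries and 15 residual degrees of freedom, 580 genes and 2 pathway genes passed at late resolution, and no other count moved by more than 1.5 times. In that fit Fmo1 at late resolution (0.46) and Fmo4 at early resolution (0.67) did not pass the threshold.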
